A study of Drosophila melanogaster with 8 samples.

Results

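Divergent pairs of start sites that were strong on both strands were examined on 2 chromosome arms of D. melanogaster S2 cells. A pair was a plus strand tag cluster (TC, a group of neighbouring CAGE tag 5′ ends on a strand) with the nearest minus strand TC of at least 5 TPM (tags per 1000000 tags of its library) upstream of it. The summits, the positions with the most tags, had to lie within 250 bp of each other. Each TC had to average from 5 to under 200 TPM over the 8 libraries. On 2L up to position 22000000 and 3L up to position 22950000 of the dm3 genome, 157 pairs passed, 85 on 2L and 72 on 3L. Their 157 plus TCs and 137 minus TCs are 294 of the 688364 TCs of the series. They were taken from 1614 plus TCs of the same levels on these stretches, of which 1443 had no minus TC of 5 TPM within 250 bp upstream and 14 had a partner at or above 200 TPM. A minus TC could serve several plus TCs, and 18 minus TCs did, in 38 pairs, so these pairs share values on the minus strand.

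S2 is a cell line derived from Drosophila embryos, and the libraries were made from its total RNA by Cap Analysis of Gene Expression (CAGE), which reads the 5′ ends of capped RNAs. The study set cells treated with dsRNA against Dis3 and Rrp6, the catalytic subunits of the nuclear RNA exosome, against cells treated with dsRNA against GFP. The cells received 40 µg of dsRNA in all, a treatment that was repeated, and were harvested on day 4. Of the 8 libraries, 4 are labelled control and 4 are labelled exosome knockdown. The labels run opposite to the expression table published with the study. Single-tag steps matched each of its 8 columns to a library of its own, and all 4 columns named KD are libraries labelled control, while all 4 named GFP are libraries labelled exosome knockdown. Libraries are therefore called by their labels. Each fold change is labelled control over labelled exosome knockdown, which is KD over GFP in that table. The start sites of Dis3 and Rrp6 and the markers of S2 cells were not analysed here, since the gene annotation supplied is for a different build, and pairs are given by position and without gene names. The libraries labelled control held 36806292 to 46388382 tags and libraries labelled exosome knockdown 33565925 to 43903483 tags. The study calls its replicates biological, but the labels do not say whether they came from separate cultures. The p-values therefore measure the spread between these libraries. They were sequenced 4 to a pool, with the pool of each not named, so a pool that coincided with a group cannot be told apart from it.

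Initiation at open chromatin commonly proceeds in both directions from a pair of core promoters on opposite strands. At many gene promoters the upstream RNA is short and is removed by the exosome, a nuclease complex that degrades such promoter upstream transcripts and enhancer RNAs in the nucleus. Where a pair of genes lies head to head, both RNAs can instead be stable messengers. A divergent pair read with and without the exosome therefore carries a level and a response for each direction.

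The pairs covered most of the range that the rule allows. Plus TCs had a median of 21.9 TPM over the 8 libraries and minus TCs a median of 21.2 TPM. The pairs were chosen by these levels and by summit distance, which are given as a description. The lowest plus TC inside the limit had 5.05 TPM and the highest outside it 4.96 TPM, and at the upper end 184.7 TPM lay inside and 224.8 TPM outside. For minus TCs the values were 5.16 TPM inside and 4.97 TPM outside at the lower end, and 193.0 TPM inside and 212.1 TPM outside at the upper end. The mean over 8 libraries can hide a group in which a TC was weak. In 108 of the 157 pairs both TCs reached 5 TPM in both group means, and in the other 49 pairs at least 1 TC did not. Of the 294 TCs, 244 reached 5 TPM in both group means, 28 only in libraries labelled control and 22 only in libraries labelled exosome knockdown. Leaving out any single library kept 140 of the pairs in the set.

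Pair A, on 3L with the plus TC at 4139094 and the minus TC from 4138986 to 4138995, had the most tags on both strands together. Its plus TC had 113, 120.0, 146 and 134 TPM in libraries labelled control, against 193, 193, 177 and 197 TPM in libraries labelled exosome knockdown. On the minus strand it had 100.3, 93.1, 103 and 106 TPM in libraries labelled control, against 136, 117, 161 and 140.1 TPM in libraries labelled exosome knockdown. Both TCs fell without overlap of the groups (log2 fold change -0.66, SE 0.14, edgeR adjusted p = 0.00182 on the plus strand, and log2 fold change -0.55, SE 0.13, edgeR adjusted p = 0.00409 on the minus strand). The minus strand call was lost when TCs of 10 tags or more were all tested (adjusted p = 0.102).

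Levels on opposite strands of a pair were close to uncorrelated within the limits of the rule. Across the 157 pairs the mean levels of the plus and minus TCs had a Pearson r of -0.01 on log2 values and a Spearman rho of -0.009, a description over pairs that share libraries and in part minus TCs. The plus TC was higher in 77 pairs and the minus TC in 80. In 60 pairs (38.2%) the strands were within 2-fold of each other, in 104 within 4-fold, and in 26 they were 8-fold or more apart. The same strand was higher in all 8 libraries in 110 pairs (70.1%).

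**Figure D1:**
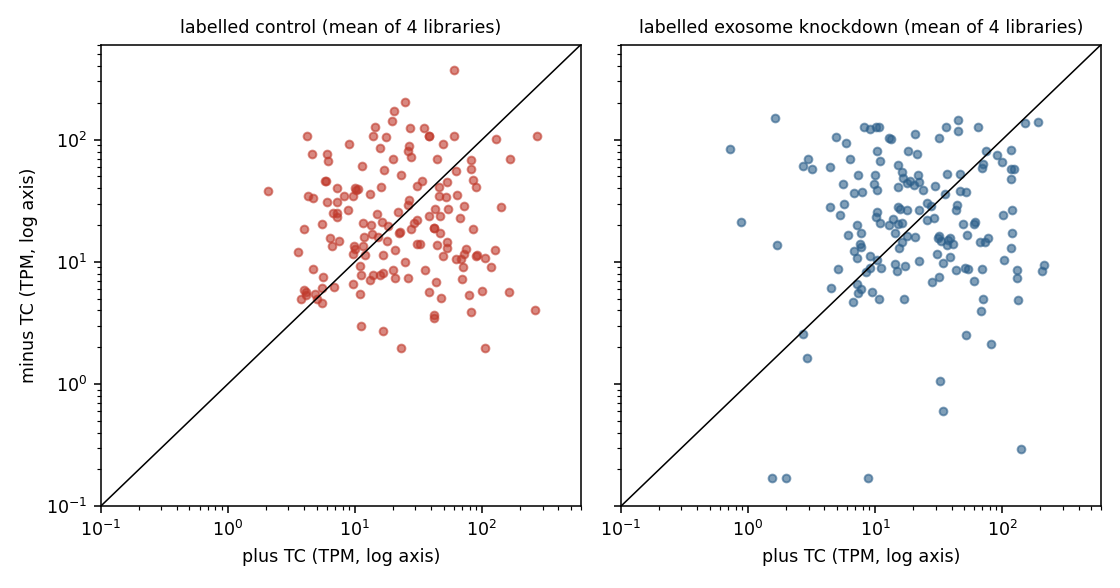
Mean TPM of the minus TC against the plus TC of each of the 157 pairs on log axes, in libraries labelled control (left) and in libraries labelled exosome knockdown (right), each point the mean of 4 libraries and the line marking equal levels. The points spread on both sides of the line in both groups, and the 3 lowest points of the right panel share a minus TC.

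The pair with the most equal strands was pair B on 3L, whose plus TC from 21189884 to 21189948 had 5.13, 4.94, 4.46 and 4.97 TPM in libraries labelled control, against 8.38, 6.35, 9.49 and 4.54 TPM in libraries labelled exosome knockdown. Its minus TC from 21189806 to 21189843 had 6.64, 5.81, 5.45 and 3.99 TPM in libraries labelled control, against 6.17, 4.71, 9.70 and 5.88 TPM in libraries labelled exosome knockdown. The plus TC averaged 4.88 TPM in libraries labelled control and 7.19 TPM in libraries labelled exosome knockdown, with overlapping groups. It reached 5 TPM only in the latter group, so its change is given as a description, with no test (log2 fold change -0.65). The pair with the largest difference in TPM was pair C on 2L, where the plus TC from 4945566 to 4945606 had 156, 184, 179.7 and 136 TPM in libraries labelled control, against 197, 180.1, 238 and 208 TPM in libraries labelled exosome knockdown. The minus TC, from 4945294 to 4945364, had only 4.77, 4.68, 7.26 and 5.95 TPM in libraries labelled control, against 10.0, 9.59, 9.07 and 5.27 TPM in libraries labelled exosome knockdown. The plus strand held from 94.9% to 97.5% of the tags of pair C in every library. Both of its TCs were called lower, with log2 fold changes of -0.41 on plus and -0.69 on minus. The plus call was lost under every alternative (adjusted p = 0.0529 to 0.297) except the replicate block and leaving out control replicate 2. The minus call was lost under every alternative (adjusted p = 0.0521 to 0.112) except DESeq2 and leaving out control replicate 3 or exosome knockdown replicate 4.

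The summits of a pair lay 32 to 250 bp apart, with a median of 126 bp and quartiles of 88 and 193 bp. Between the TC edges the gap had a median of 88 bp. Distances clustered near 100 bp, with 50 pairs at over 50 to 100 bp and 45 at over 100 to 150 bp. Only 6 pairs were closer than this and 22 lay over 150 to 200 bp apart. The longest distance inside the limit was 250 bp and the next outside it 251 bp, and the limit cut through a second rise. Under the same levels, 34 pairs lay over 200 to 250 bp apart, 104 over 250 to 300 bp and 75 over 300 to 350 bp. Of 485 such pairs up to 500 bp, 157 (32.4%) lay within 250 bp. Pairs with a TC under 5 TPM on the same stretches had a single rise, with 226 of 1361 pairs at over 100 to 150 bp and 120 at over 250 to 300 bp, and 60.8% of them lay within 250 bp. For those weaker pairs the partner was the nearest minus TC that passed the filter at 1 TPM, whatever its level, so their distances are shorter by construction.

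**Figure D2:**
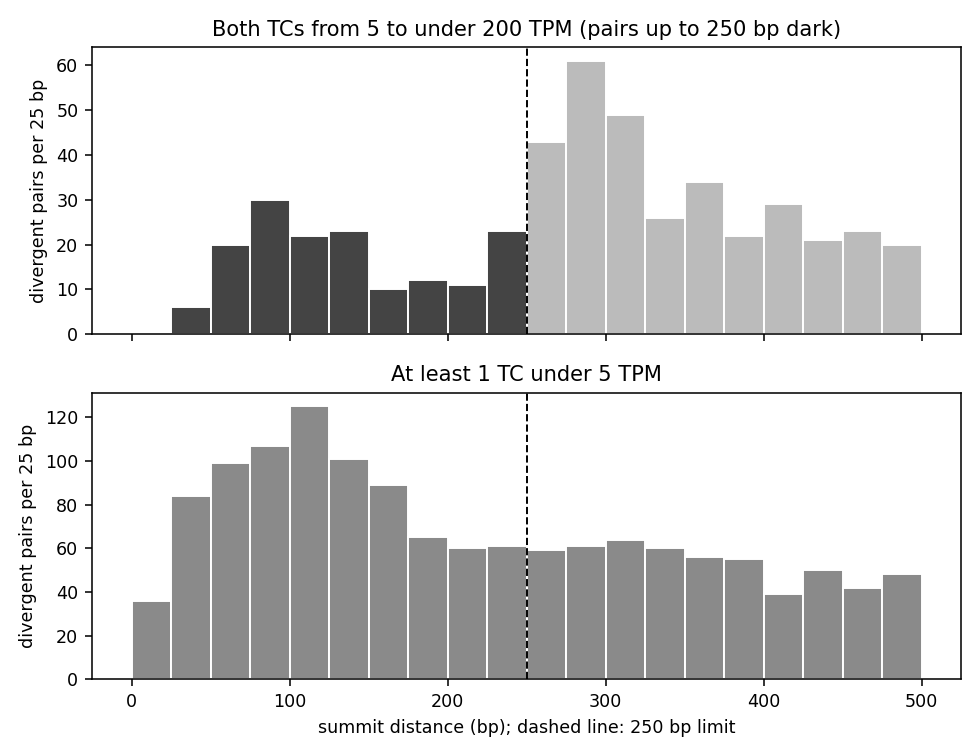
Number of divergent pairs per 25 bp of summit distance (bp), for pairs with both TCs from 5 to under 200 TPM (top, the 157 pairs dark) and for pairs with at least 1 TC under 5 TPM (bottom), on the same stretches of 2L and 3L. The strong pairs have a rise that peaks at 75 to 100 bp with 30 pairs and another at 275 to 300 bp with 61 pairs, which lies beyond the dashed limit of 250 bp.

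The closest summits belonged to pair D on 2L, 32 bp apart. Its plus TC from 21657654 to 21657725 had 37.2, 39.8, 31.0 and 28.0 TPM in libraries labelled control, against 36.9, 31.0, 34.5 and 27.3 TPM in libraries labelled exosome knockdown, so that the groups overlapped. On the minus strand the TC from 21657628 to 21657629 had 58.7, 49.2, 35.9 and 39.8 TPM in libraries labelled control, against 1.84, 0.596, 0.546 and 1.23 TPM in libraries labelled exosome knockdown. This minus TC was thus near 1 TPM in one group and at 35.9 TPM or more in the other (log2 fold change 5.36). That change is given as a description, with no test, since the TC reached 5 TPM only in libraries labelled control. The plus TC did not pass the test (log2 fold change -0.02, SE 0.18, edgeR adjusted p = 0.926). At the other end of the range was pair E on 2L, whose summits lay 250 bp apart. There the plus TC from 1173044 to 1173053 had 20.4, 22.1, 16.4 and 13.8 TPM in libraries labelled control, against 19.8, 15.8, 14.1 and 13.3 TPM in libraries labelled exosome knockdown. The minus TC from 1172768 to 1172801 had 17.9, 23.1, 21.4 and 16.9 TPM in libraries labelled control, against 24.0, 29.2, 27.0 and 28.7 TPM in libraries labelled exosome knockdown and fell (log2 fold change -0.55, SE 0.17, edgeR adjusted p = 0.0187), a call lost without control replicate 1 (adjusted p = 0.0569) or exosome knockdown replicate 2 (adjusted p = 0.0596) and under both looser filters.

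The response to the treatment was next compared between the groups, by the edgeR quasi-likelihood test over all 30931 TCs above 1 TPM in at least 2 of the 4 libraries of a group. All 294 TCs of the pairs passed this filter, 290 of them in both groups and 4 in libraries labelled control only. More TCs of the pairs fell than rose in libraries labelled control, KD in the study's table. Of the 294 TCs, 54 rose (18.4%) and 114 fell (38.8%) at an adjusted p under 0.05, where 34.4% of all TCs tested rose and 25% fell. The 4 TCs that passed the filter in libraries labelled control only are among the 54, and 50 of the other 290 rose. Of all 30931 TCs tested, 9208 passed the filter in libraries labelled control only and 4180 in libraries labelled exosome knockdown only. Such TCs entered through the group where they were high, so the shares and median over all TCs tested partly follow from the filter. This holds wherever these are given for comparison. On the plus strand 33 of 157 TCs rose and 55 fell, and on the minus strand 21 of 137 rose and 59 fell. The median log2 fold change was -0.20 on the plus strand and -0.33 on the minus strand, beside 0.03 over all TCs tested. Of the 244 TCs at 5 TPM or more in both group means, 29 rose (11.9%) and 93 fell (38.1%). Calls over all TCs tested were not counted under this limit. The 2 groups did not overlap at 146 TCs of the pairs (49.7%), close to the 52% of all TCs tested.

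Plus TCs of the same levels without a strong partner gave like shares. Of 1441 tested, 326 rose (22.6%) and 488 fell (33.9%), with a median log2 fold change of -0.23. The weaker divergent pairs, those of 3024 tested genome-wide with a TC under 5 TPM, had more rises than falls. Of their 2490 plus TCs 48.9% rose and 19.0% fell, and of their 2005 minus TCs 48.4% rose and 19.9% fell. These shares were not tested against each other, and the weaker pairs differ from the strong ones in level by the rule. TCs of the weaker pairs could also pass the filter at 1 TPM in a single group, so their shares may partly follow from the filter. How many did so was not counted.

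**Figure D3:**
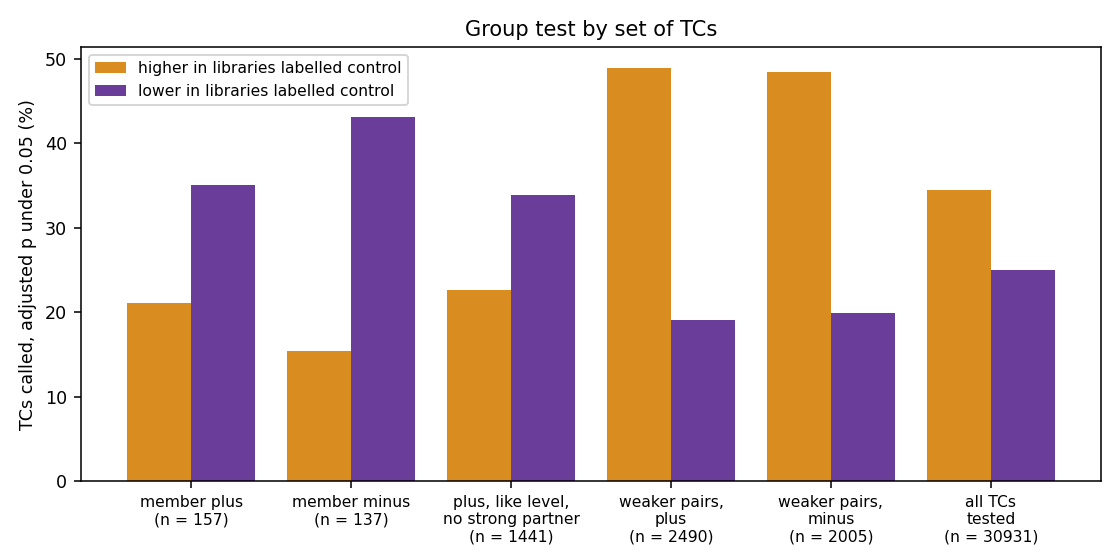
Percent of TCs called higher (orange) or lower (purple) in libraries labelled control at an edgeR adjusted p under 0.05, by set, with the number of TCs tested under each. Falls outnumber rises among TCs of the strong pairs on both strands and among plus TCs of like level without a strong partner, whereas rises outnumber falls in the weaker pairs and over all TCs tested.

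The excess fraction, the part of a TC's level in libraries labelled control that exceeds its level in libraries labelled exosome knockdown, divided by the first and set to 0 where there is no excess, has the form of an exosome sensitivity if the table's KD columns are taken as the depleted ones. It was under 0.25 for 221 of the 294 TCs (75.2%) and over 0.75 for 23 (7.82%). Over all TCs tested the shares were 57.3% and 22.8%, and over plus TCs of like level without a strong partner 71.6% and 8.12%. Turned round, with the labels taken as they stand, the excess in libraries labelled exosome knockdown was under 0.25 for 181 TCs (61.6%) and over 0.75 for 4 (1.36%), beside 68.1% and 3.71% of all TCs tested and 65.3% and 2.78% of the lone plus TCs. In the first direction both TCs were under 0.25 in 97 pairs (61.8%). In 10 pairs a TC was over 0.75 and its partner under 0.25, and the TC with the large excess lay on the plus strand in 5 of them and on the minus strand in 5. Both TCs were over 0.75 in 4 pairs, of which 3 share their minus TC. The remaining 46 pairs lay between these classes.

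Large rises were seen on both strands. A log2 fold change over 2 was measured for 21 of the 294 TCs (7.14%), beside 22.0% of all TCs tested and 7.91% of the lone plus TCs of like level. Of the 21 TCs, 3 reached 5 TPM in both group means and 18 only in libraries labelled control, so that these 18 entered the set through the group in which they were high. Among the named TCs the minus TC of pair Q reached 5 TPM in both groups, and the rising TCs of pairs D, F, G, H, L, M and P did not. The changes of those that did not are given as a description, with no test. The plus TC of pair H and the minus TCs of pairs L and M also passed the filter at 1 TPM in libraries labelled control alone, as did a minus TC on 3L from 8511794 to 8511827. On the plus strand the largest rise was in pair F on 2L, whose plus TC from 2129367 to 2129397 had 23.4, 18.5, 30.8 and 33.7 TPM in libraries labelled control, against 1.21, 0.477, 0.338 and 1.50 TPM in libraries labelled exosome knockdown (log2 fold change 4.83, given as a description). The groups were far apart. The minus strand TC, which spans 2129227 to 2129234, with summits 165 bp apart, had 15.5, 14.5, 40.3 and 57.8 TPM in libraries labelled control, against 26.3, 22.3, 16.5 and 19.8 TPM in libraries labelled exosome knockdown, which varied almost 4-fold among the libraries labelled control and did not pass the test (adjusted p = 0.309). The next rise was in pair G on 3L, where the plus TC from 15154347 to 15154390 had 47.4, 48.0, 53.8 and 64.3 TPM in libraries labelled control, against 4.62, 2.47, 1.17 and 2.49 TPM in libraries labelled exosome knockdown (log2 fold change 4.22, given as a description). Here the minus TC from 15154293 to 15154310 rose as well, with 17.1, 16.8, 12.4 and 12.2 TPM in libraries labelled control, against 3.80, 3.13, 1.20 and 2.10 TPM in libraries labelled exosome knockdown (log2 fold change 2.42, given as a description). The groups were apart on both strands of pair G.

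Pair H on 3L differed in opposite directions on its strands. The plus TC, from 7798153 to 7798199, had 13.0, 12.9, 9.77 and 11.3 TPM in libraries labelled control, against 0.979, 0.506, 0.442 and 0.956 TPM in libraries labelled exosome knockdown (log2 fold change 3.94, given as a description). Its minus TC from 7798007 to 7798008 had 13.5, 17.9, 9.38 and 23.2 TPM in libraries labelled control, against 78.4, 127, 26.5 and 106 TPM in libraries labelled exosome knockdown (log2 fold change -2.51, SE 0.45, edgeR adjusted p = 0.000735). The minus TC was the larger by far in libraries labelled exosome knockdown. The strands were closer in those labelled control, furthest apart in replicate 4 with 11.3 TPM on plus and 23.2 TPM on minus. This was also the largest fall of any minus TC of the pairs.

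On the minus strand the largest rise was in pair L on 2L. The minus TC, from 301386 to 301503, had 12.7, 11.9, 9.38 and 11.5 TPM in libraries labelled control, against 0.159, 0.0894, 0 and 0.437 TPM in libraries labelled exosome knockdown (log2 fold change 5.96, given as a description). Replicate 3 of the libraries labelled exosome knockdown had 0 tags there, which allows up to 0.0780 TPM by counting error alone. The plus TC from 301606 to 301610 rose too, with 10.9, 10.2, 12.5 and 14.2 TPM in libraries labelled control, against 1.87, 1.55, 0.442 and 2.32 TPM in libraries labelled exosome knockdown (log2 fold change 2.86, given as a description). The same minus TC is the partner of 2 further plus TCs, looked up after their values were seen. The one at 301638 had 14.5, 15.0, 18.3 and 18.4 TPM in libraries labelled control, against 3.01, 1.58, 0.780 and 2.62 TPM in libraries labelled exosome knockdown. The one from 301666 to 301698 had 87.7, 87.3, 94.1 and 97.2 TPM in libraries labelled control, against 11.3, 5.93, 3.64 and 14.6 TPM in libraries labelled exosome knockdown. All 3 plus TCs of this locus rose, by log2 fold changes of 2.86, 2.97 and 3.29, and the fitted change of the minus TC, 5.96, was above each of these.

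After pairs L and D, the next largest minus strand rise was in pair M on 3L. On the minus strand the TC from 16122619 to 16122622 had 10.0, 11.4, 13.9 and 7.17 TPM in libraries labelled control, against 0.456, 0.328, 0.104 and 0.301 TPM in libraries labelled exosome knockdown (log2 fold change 5.05, given as a description). Its plus TC is the single position 16122772 and fell, with 93.4, 76.1, 38.6 and 64.1 TPM in libraries labelled control, against 176, 97.3, 154 and 135 TPM in libraries labelled exosome knockdown (log2 fold change -1.12, SE 0.26, edgeR adjusted p = 0.0036). Between the TCs of pair M lay 339 TPM in libraries labelled control and 645 TPM in libraries labelled exosome knockdown, both strands together. That is more than its own plus TC had in either group. Another plus strand TC of 5 TPM or more lay between the summits of 22 of the pairs, and in 2 it had 200 TPM or more.

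The highest level reached by any minus TC of a named pair was in pair Q on 3L. The minus strand TC, which spans 11157966 to 11158021, had 396, 311, 508 and 270.3 TPM in libraries labelled control, against 21.2, 12.3, 10.9 and 13.8 TPM in libraries labelled exosome knockdown (log2 fold change 4.58, SE 0.27, edgeR adjusted p = 2.06e-06). The plus TC from 11158073 to 11158136, with its summit 56 bp away, had 58.7, 56.9, 77.0 and 48.6 TPM in libraries labelled control, against 67.0, 62.1, 80.7 and 57.7 TPM in libraries labelled exosome knockdown and did not pass the test (log2 fold change -0.25, SE 0.17, edgeR adjusted p = 0.24). Groups far apart on one strand thus stood beside overlapping groups on the other.

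A log2 fold change under -1 was measured for 44 of the 294 TCs (15.0%), 22 on each strand, beside 16.1% of all TCs tested and 15.3% of the lone plus TCs. The largest was -2.51. Of the 44 TCs, 28 reached 5 TPM in both group means and 16 only in libraries labelled exosome knockdown, among them the plus TC of pair I and the minus TC of pair N. These 16 entered the set through the group in which they were high. The changes of the plus TC of pair I and the minus TC of pair N are therefore given with no test. The largest plus strand fall was in pair I on 3L, whose plus TC from 9891742 to 9891803 had 2.36, 2.18, 1.66 and 2.12 TPM in libraries labelled control, against 12.5, 11.7, 11.0 and 6.45 TPM in libraries labelled exosome knockdown (log2 fold change -2.42, given as a description). Its minus TC from 9891671 to 9891672 had 32.3, 42.5, 37.3 and 40.2 TPM in libraries labelled control, against 30.7, 23.9, 21.4 and 27.0 TPM in libraries labelled exosome knockdown and rose (log2 fold change 0.48, SE 0.17, edgeR adjusted p = 0.029), a call lost without control replicate 2 or 4, without exosome knockdown replicate 2 or 3 (adjusted p = 0.0570 to 0.0892) and under both looser filters. Pair J on 3L fell on both strands. On the plus strand the TC from 5556878 to 5556926 had 6.77, 7.35, 8.62 and 5.98 TPM in libraries labelled control, against 21.7, 22.1, 23.5 and 15.1 TPM in libraries labelled exosome knockdown (log2 fold change -1.62, SE 0.21, edgeR adjusted p = 8.85e-05). The minus TC, from 5556765 to 5556783, had 25.4, 24.9, 24.4 and 48.1 TPM in libraries labelled control, against 106, 88.2, 113 and 138 TPM in libraries labelled exosome knockdown (log2 fold change -1.95, SE 0.24, edgeR adjusted p = 5.71e-05). The balance of pair J did not pass the test (adjusted p = 0.412), and replicate 4 stood above the other libraries labelled control on the minus strand. In pair K on 2L, the plus TC from 8437408 to 8437447 had 8.64, 9.46, 7.80 and 7.23 TPM in libraries labelled control, against 25.8, 22.7, 29.6 and 16.8 TPM in libraries labelled exosome knockdown (log2 fold change -1.61, SE 0.22, edgeR adjusted p = 0.000101). On the minus strand the TC from 8437341 to 8437354 had 43.6, 34.3, 35.4 and 25.9 TPM in libraries labelled control, against 35.5, 37.4, 46.3 and 35.0 TPM in libraries labelled exosome knockdown and did not pass the test (adjusted p = 0.275).

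Among minus TCs the next largest falls after pair H were in pairs N and O, both on 2L. In pair N the minus TC from 5054993 to 5055051 had 2.14, 1.47, 0.625 and 3.61 TPM in libraries labelled control, against 8.93, 7.09, 8.53 and 9.76 TPM in libraries labelled exosome knockdown (log2 fold change -2.22, given as a description). The plus TC from 5055137 to 5055146 had 24.9, 27.6, 18.6 and 21.9 TPM in libraries labelled control, against 43.1, 35.6, 52.6 and 42.2 TPM in libraries labelled exosome knockdown and fell as well (log2 fold change -0.98, SE 0.18, edgeR adjusted p = 0.000844). In pair O the minus TC from 10517215 to 10517228 had 6.50, 6.33, 6.49 and 6.90 TPM in libraries labelled control, against 31.1, 28.7, 31.1 and 21.5 TPM in libraries labelled exosome knockdown (log2 fold change -2.20, SE 0.19, edgeR adjusted p = 6.58e-06). The plus TC from 10517339 to 10517362 had 9.15, 11.0, 8.43 and 10.1 TPM in libraries labelled control, against 13.4, 13.0, 18.0 and 16.1 TPM in libraries labelled exosome knockdown (log2 fold change -0.73, SE 0.19, edgeR adjusted p = 0.00618). Both strands fell without overlap in both pairs, the minus strand by more. With TCs of 10 tags or more all tested, the plus call of pair O was lost (adjusted p = 0.0685).

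**Figure D4:**
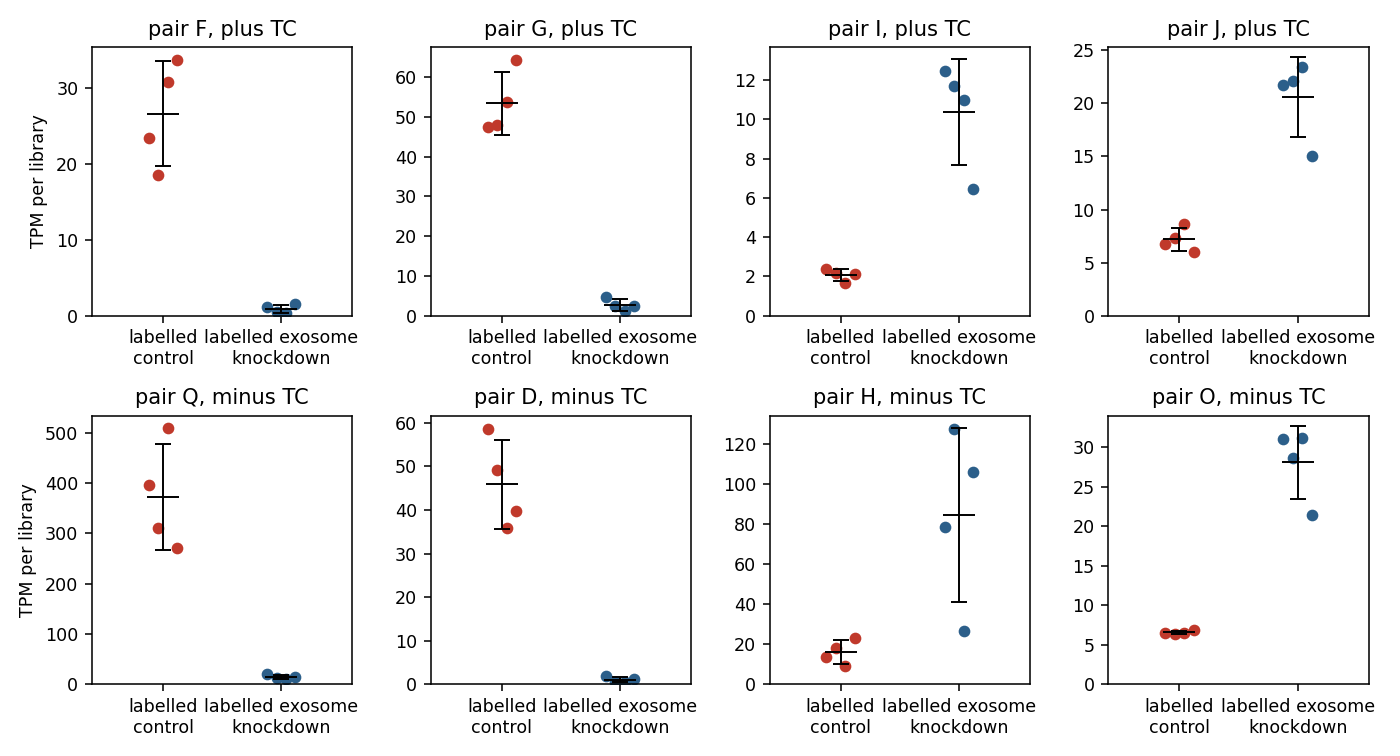
TPM per library of 4 plus TCs (top) and 4 minus TCs (bottom) of named pairs, with the 4 libraries labelled control left of the 4 labelled exosome knockdown, and the mean and SD as bars. The groups do not overlap in any panel, with the libraries labelled control higher for pairs F, G, Q and D and lower for pairs I, J, H and O.

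The responses of the strands of a pair were then set side by side. Both TCs fell in 32 pairs and both rose in 11. In 11 pairs the plus TC rose and the minus TC fell, and in 4 the plus TC fell and the minus TC rose. In 63 pairs 1 of the TCs was called, and in 36 neither was. As shares, both fell in 20.4% and both rose in 7.01% of the pairs, the strands were called in opposite directions in 7.01% (plus rose) and 2.55% (minus rose), and neither was called in 22.9%. Over the 3024 divergent pairs tested genome-wide these shares were 12.3% and 32.9%, 3.70% and 2.48%, and 17.1%, and over the 534 of them with both TCs at 5 TPM or more, which include the 157, they were 21.7% and 10.5%, 6.18% and 4.49%, and 17.4%. The differences between these shares were not tested. The log2 fold changes of the strands had a Spearman rho of 0.32 over 157 pairs and 0.30 over 137 pairs with each minus TC used once. Over the 2490 weaker pairs rho was 0.67. The rho values describe TCs measured in the same libraries, and the difference between them was not tested. TCs of the weaker pairs and of all 3024 pairs could pass the filter at 1 TPM in a single group. Their rho and shares may partly follow from this.

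Whether the balance between strands moved was tested with a strand-by-group term over 3024 divergent pairs genome-wide, with libraries as blocks. In the libraries labelled control the balance moved towards the plus strand in 44 of the 157 pairs and towards the minus strand in 31. Genome-wide 22.2% of pairs moved towards plus and 22% towards minus, 44.1% in all, beside 75 of 157 here. Of these 75, 6 pairs hold a TC that passed the filter in libraries labelled control only. The change in log2 (plus over minus) was 1 or more in size in 54 pairs, and its median size was 0.67, beside 0.89 over all pairs tested and 0.69 over the 534 pairs with both TCs at 5 TPM or more. The balance moved towards the strand with fewer tags over the 8 libraries in 37 of the 75 pairs called. Among the 108 pairs with both TCs at 5 TPM or more in both group means, 25 moved towards plus and 13 towards minus. Pairs genome-wide were not counted under this limit, so the genome-wide shares above are no like comparison for these counts.

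The largest move towards plus was in pair H, where the plus strand held 49.1%, 42.0%, 51.0% and 32.8% of the tags of the pair in libraries labelled control, against 1.23%, 0.397%, 1.64% and 0.894% in libraries labelled exosome knockdown. This was a change of 6.36 on the log2 scale, given as a description. Pair F followed with a change of 4.66 on the log2 scale. Next was pair P on 2L, with a change of 3.32 on the log2 scale. The balance changes of pairs F and P are also given as a description, since their plus TCs reached 5 TPM only in libraries labelled control. The plus strand TC, which spans 21795517 to 21795618, had 10.4, 11.6, 15.0 and 7.28 TPM in libraries labelled control, against 2.07, 2.41, 1.48 and 0.847 TPM in libraries labelled exosome knockdown. The minus strand TC, which spans 21795421 to 21795444, had 9.94, 10.5, 7.63 and 8.64 TPM in libraries labelled control, against 13.2, 13.5, 15.5 and 12.9 TPM in libraries labelled exosome knockdown, and the strands moved apart, with a rise on plus (log2 fold change 2.59, given as a description) and a fall on minus (log2 fold change -0.68, SE 0.19, edgeR adjusted p = 0.01), the fall being lost with TCs of 10 tags or more all tested (adjusted p = 0.107).

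Towards the minus strand the largest move was in pair M, by -6.23 on the log2 scale, given as a description. Even so, the plus TC of pair M kept the larger part of the tags of the pair in every library. This balance sets the TCs of the pair against each other and leaves out the many tags between them. Pair D moved by -5.46 on the log2 scale, likewise given as a description, since its minus TC reached 5 TPM only in libraries labelled control. There the plus strand held 38.8%, 44.7%, 46.4% and 41.3% of the tags in libraries labelled control, against 95.2%, 98.1%, 98.4% and 95.7% in libraries labelled exosome knockdown. Pair Q moved by -4.83 on the log2 scale (SE 0.29, edgeR adjusted p = 4.68e-08). In pairs D and Q the strand with more tags changed, the minus strand in all 4 libraries labelled control and the plus strand in all 4 labelled exosome knockdown. Such a switch in every library was found in 5 of the 157 pairs, and by group means in 21. Switches were not counted over all divergent pairs tested genome-wide, so these counts cannot be called many or few. Pair O was another of the 5, with the plus strand higher in libraries labelled control and the minus strand in libraries labelled exosome knockdown. The others, at 3L 9470140 and 3L 19800358 on the plus strand, had the plus strand higher in libraries labelled control as well. At the first, plus averaged 30.8 TPM and minus 22.1 TPM in libraries labelled control, against 18.9 TPM and 45.8 TPM in libraries labelled exosome knockdown. At the second, plus averaged 38.6 TPM and minus 23.6 TPM in libraries labelled control, against 36.9 TPM and 52.5 TPM in libraries labelled exosome knockdown.

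**Figure D5:**
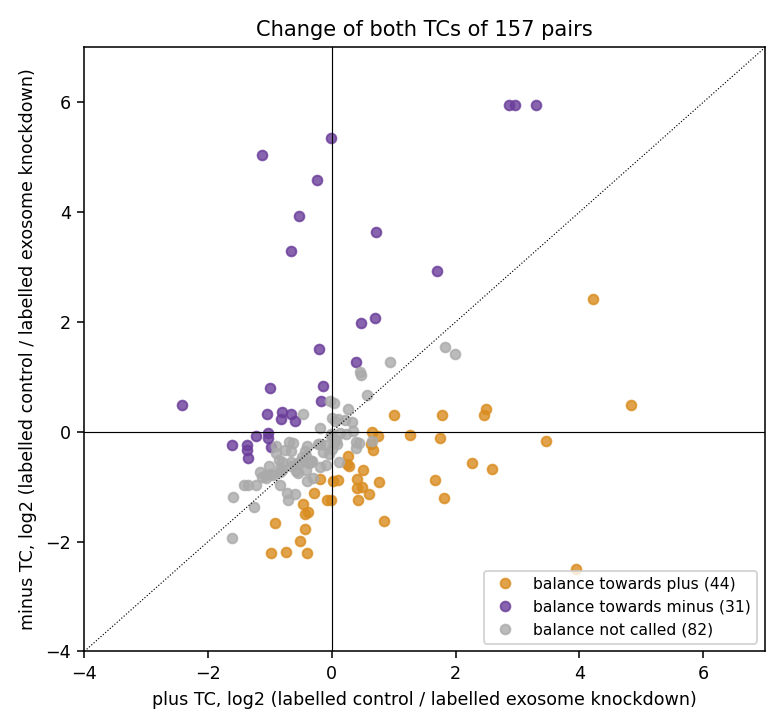
Change of the minus TC against that of the plus TC of the 157 pairs, as log2 of labelled control over labelled exosome knockdown, with the 44 pairs whose balance moved towards plus in orange, the 31 towards minus in purple and the 82 not called in grey. The pairs not called lie along the dotted line of equal change, and 4 pairs pass 2 on both axes.

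Some pairs with a TC that rose strongly beside one that did not rise were not named by the rule and were looked up after their values were seen. Their rising TCs averaged under 5 TPM in libraries labelled exosome knockdown, so they entered the set through the group in which they were high. Their changes are given as a description, with no test. On 2L the pair with the plus TC from 8212929 to 8212977 had 16.1, 15.9, 20.7 and 11.7 TPM in libraries labelled control, against 3.83, 1.94, 3.04 and 3.85 TPM in libraries labelled exosome knockdown on the plus strand. Its minus TC from 8212870 to 8212900 had 45.5, 42.3, 39.5 and 36.1 TPM in libraries labelled control, against 62.0, 49.4, 64.3 and 52.6 TPM in libraries labelled exosome knockdown. The plus TC rose by 2.26 on the log2 scale and the minus TC fell by 0.57 on the log2 scale. On 3L a pair whose minus TC spans 15154808 to 15154843 had 41.4, 37.5, 39.7 and 46.8 TPM in libraries labelled control, against 6.29, 4.65, 1.66 and 3.12 TPM in libraries labelled exosome knockdown on the minus strand. Its plus TC from 15154905 to 15154941 had 57.1, 47.2, 28.5 and 51.8 TPM in libraries labelled control, against 62.1, 71.5, 73.7 and 64.8 TPM in libraries labelled exosome knockdown. The minus TC rose by 3.29 and the plus TC fell by 0.65 on the log2 scale. This pair lies less than 1 kb from pair G, in which both strands rose. At another, on 3L, the plus TC from 20386689 to 20386759 had 4.61, 4.12, 44.2 and 25.6 TPM in libraries labelled control, against 0.524, 2.03, 1.92 and 2.08 TPM in libraries labelled exosome knockdown. Its level varied about 10-fold among the libraries labelled control, and the groups did not overlap (log2 fold change 3.46). The minus TC, from 20386587 to 20386659, had 141, 132, 132 and 166 TPM in libraries labelled control, against 155, 152, 154 and 137 TPM in libraries labelled exosome knockdown, with overlapping groups.

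By summit distance, whose order was not tested, the counts were as follows. At under 100 bp 9 plus TCs rose and 21 fell in 56 pairs, at 100 to under 150 bp 13 rose and 15 fell in 44 pairs, and at 150 to 250 bp 11 rose and 19 fell in 57 pairs. On the minus strand 7 entries rose and 25 fell in the closest pairs, 9 rose and 19 fell in the middle ones, and 9 rose and 22 fell in the widest, with shared minus TCs counted once per pair. Over all TCs tested 34.4% rose and 25% fell. The balance was called in 50%, 50% and 43.9% of these pairs, in the same order of distance, beside 44.1% of all divergent pairs tested genome-wide. The median log2 fold changes in that order were -0.38, -0.065 and -0.14 on plus and -0.37, -0.33 and -0.22 on minus.

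The TCs of the pairs were moderately broad, and this was not used by the rule. They spanned a median of 32 bp, and their summit held a median of 31.6% of their tags. The 157 plus TCs alone spanned a median of 28 bp, with a median summit share of 33.7%, whereas plus TCs of like level without a strong partner spanned a median of 21 bp, with a median summit share of 40.9%. A summit with 50% of the tags or more was found in 48 plus TCs of the pairs (30.6%), against 611 of the 1443 lone plus TCs (42.3%). The narrowest were 27 TCs of a single position, among them the plus TC of pair A, and the widest spanned 216 bp. Between groups the summit was the same base in 249 of the 294 TCs (84.7%) and within 2 bp in 254, and it moved by over 10 bp in 25, by 59 bp at most. In pair P the plus summit moved by 37 bp and in pair Q the minus summit by 21 bp. Among plus TCs the summit was the same base in both groups in 84.1% of those of the pairs and 86.6% of the lone ones, and in all 8 libraries separately in 58.0% of those of the pairs and 64.9% of the lone ones. These differences were not tested.

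The pairs held 1.07% of all tags in each group, 10672 ± 186 TPM in libraries labelled control and 10716 ± 655 TPM in libraries labelled exosome knockdown (SD, n = 4 each). Tags on the outward strands, from each TC to 250 bp beyond its summit, came to 4697 ± 279 TPM in libraries labelled control and 4045 ± 391 TPM in libraries labelled exosome knockdown, with overlapping groups. The windows of the 5 pairs with most such tags held 43.5% of this sum in libraries labelled control and 38.0% in libraries labelled exosome knockdown, and without their positions it came to 2654 ± 185 TPM in libraries labelled control and 2498 ± 154 TPM in libraries labelled exosome knockdown, again with overlap. The outward tags were higher in libraries labelled control at 89 pairs and lower at 68. Between the TCs there were 1694 ± 45.6 TPM in libraries labelled control and 2201 ± 21.8 TPM in libraries labelled exosome knockdown, without overlap. There 5 pairs held 50.3% of the sum in libraries labelled control and 60.5% in libraries labelled exosome knockdown, and without their positions the groups overlapped, at 842 ± 19.3 TPM in libraries labelled control and 870.1 ± 21.6 TPM in libraries labelled exosome knockdown. The tags between the TCs were higher in libraries labelled control at 57 pairs and lower at 99. In these sums each position counts once, also where pairs share it. No other TC of 5 TPM or more lay within 1 kb of 64 of the pairs, and the most crowded pair had 7.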

How the data were processed

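CAGE 5′ ends of 8 S2 libraries were analysed as counts. The authors deposited raw tag counts per position and strand of dm3, made from trimmed, filtered reads mapped with Bowtie 1.1.1, with no normalization. Library totals, 33565925 to 46388382 tags, gave TPM. Duplicate removal is not given in the sources used here, so limits cover counting error only.

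Positions with 2 tags in any library were merged within 20 bp per strand, positions under 0.1 of the summit were dropped and the rest merged again. Groups were compared with edgeR 4.0.16 (quasi-likelihood, TMM factors 0.888 to 1.06, R 4.3.3) on TCs above 1 TPM in 2 libraries of a group, two-sided, with Benjamini-Hochberg adjustment over all TCs at 0.05, and balance with a strand-by-group term. The SE is that implied by the F statistic. DESeq2 1.42.0 and limma 3.58.1 served as alternatives. On simulated data for the TC test, 6 of 50 changes of 1.5-fold, 38 of 50 of 2-fold and 50 of 50 of 4-fold were found, with 2 false calls among 30931 TCs. The counts were drawn at a fixed dispersion, and changes were planted in few TCs, all with many tags. Recovery for TCs with few tags, or where most TCs change, was not simulated. Tables and plots were made in Python 3.11.15 with pandas 2.3.3, numpy 2.4.6 and matplotlib 3.10.9.

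The members, lists and alternatives were chosen with earlier results of these data known. Named pairs were those with the most tags, the smallest and largest strand difference, the shortest and longest distance, the 3 largest rises and falls per strand without overlap at an adjusted p under 0.05, and the 3 largest balance moves each way. Positions were not converted to another build, so genes, sequences and markers were not analysed here.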

Additional observations from a re-analysis of the deposited data

Results flagged for a closer look

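In pair J the minus TC had 48.1 TPM in replicate 4 of the libraries labelled control and 24.4 to 25.4 TPM in the others, a sample far from the rest of its group, and it lay below all libraries labelled exosome knockdown. The tags between the TCs of the pairs came to 1627 TPM in a library labelled control, below the other libraries of that group. The tags on the inward strand of the pairs, from each TC's inner edge outwards, came to 258.3 TPM in a library labelled control, where the group averaged 296.8 ± 25.7 TPM (SD, n = 4) and the libraries labelled exosome knockdown 278.9 ± 30.1 TPM (SD, n = 4). These 3 values were found among 86 groups of 4 libraries examined for a single distant library, where chance gives about 1 in 20.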

How the results depend on the processing

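The number of pairs followed the rule, with 101 pairs at up to 150 bp, 485 at up to 500 bp, 58 without trimming (median distance 182 bp) and 152 to 161 without a library (median distance 120 to 126 bp). Of the TCs of the pairs, 45 to 53 rose and 97 to 117 fell without a library, beside 9976 to 10531 and 6243 to 7649 of all 30931 TCs tested. With TCs of 10 tags or more all tested, 47 rose and 75 fell. Of the 253238 TCs that then entered the adjustment, 47190 rose and 14745 fell. Limited to TCs at 5 TPM or more in both group means, an alternative chosen after seeing the data, 29 rose, and limited to such pairs 25 moved towards plus and 13 towards minus. The same limit was not applied to all TCs or pairs tested. Without a library 38 to 45 moved towards plus and 26 to 31 towards minus, beside 599 to 661 and 604 to 651 of all 3024 pairs tested. Median log2 fold changes with library totals alone were -0.11 on the plus and -0.24 on the minus strand, the median over all TCs tested being 0.12, and without a library they lay from -0.24 to -0.17 on plus and from -0.42 to -0.32 on minus. The median summit share was 32.7% in libraries labelled exosome knockdown alone. Leaving out the 5 pairs with most tags, also chosen later, moved the difference, labelled control minus labelled exosome knockdown, to -28.3 TPM for tags between the TCs and to 156 TPM for outward tags. The plus TC of pair D, never called, changed sign, with 0.069 (library totals), 0.017 (filter at 0.2 TPM), 0.052 (10 tags) and -0.15 to 0.062 without a library, as did the plus TC of pair E with -0.034 to 0.23 without a library. Of 646 alternatives for 51 values of the 17 named pairs, 590 kept call and direction, 45 lost a call and 3 gained one, those of the balance of pair E. Same-numbered libraries deviated together with r from 0.0906 to 0.377, and each of the 8 correlated best with its own number, a hint only. The numbers do not pair them by the limit of 0.1 for every pair, and with the replicate block 57 TCs rose, 113 fell, and 41 pairs moved towards plus and 30 towards minus. Over all TCs tested with that block 11105 rose and 8280 fell, and over all pairs tested 657 moved towards plus and 659 towards minus. The causes of these shifts were not tested. Depth left few tags behind the lowest TCs, such as the minus TC of pair L.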
